A study of Mus musculus with 12 samples.

Results

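Phlda1 and AA467197 are 2 of the 19057 mouse genes with a probe on the array, and each is read by 1 of its 45281 probes (ILMN_2754985 for Phlda1 and ILMN_3160750 for AA467197). They were selected on a signal that moved the same way after interleukin-7 (IL-7) in naive CD4+ T cells and in Th9 cells, a helper T cell subset that secretes interleukin-9. The values that chose them are the differences at 6 h and 24 h against 0 h and in Th9 cells after IL-7 against Th9 cells. Those differences, and the 24 h minus 6 h difference that follows from them, are therefore given as a description with no test of either gene. Tests are given for other genes only.

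The data are 12 arrays of total RNA from spleen CD4+ T cells of mice 2 months old. Naive CD4+ T cells were given IL-7 for 0, 6 or 24 h (2 arrays per time, the first experiment). Th9 cells were cultured for 3 days, either after 48 h of IL-7 on the naive cells (called IL7 Th9, 3 arrays) or without IL-7 (called Th9, 3 arrays, the second experiment). The sample labels name the strain B6.Cg-Tg(TcraTcrb)425Cbn/J, whose T cells carry 1 transgenic T cell receptor, for all groups, and the design text names C57BL/6. No naive cells were cultured without IL-7, so differences from 0 h hold the cytokine and the hours in culture at once. Whether the Th9 cells without IL-7 also spent 48 h in culture first is not given. Nothing says that replicates came from separate mice or cultures, so a p-value measures only the spread between these arrays.

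Mean signal per array was 157.6 to 245.2 in the first experiment and 116.1 to 221.6 in the second, and 28.3% to 34.5% of the probes were detected (detection p under 0.01). Of the 9 probed CD4+ T cell markers, 8 were detected on every array. The CD8 T cell marker Cd8b1 was detected on every array as well, and Cd8a on none. On the naive arrays the deposited signal was 1063.1 to 1999 for Cd8b1 and 136 to 298.8 for Cd4, though levels of different probes do not compare directly. The first 6 h array stood apart. The summed signal of 8 B cell markers was 10425.7 on it and 128.2 to 623.3 on the other 5 naive arrays, and that of 15 myeloid and dendritic cell markers was 5490.9 on it and 1164.9 to 1976.6 on the others. That of 2 erythroid markers was 1414.5 on it and 41.6 to 476.4 on the others. A fit without this array also drops the spread between the 6 h arrays from the estimate that all times share. More calls in such a fit, here and below, cannot be told apart from that loss.

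Phlda1, also called TDAG51, encodes a protein with a pleckstrin homology-like domain. It was first described in a mouse T cell hybridoma as a gene switched on by the T cell receptor and linked there to expression of the death receptor Fas, and in other cells it is induced by ERK signalling and by stress. AA467197, also called Nmes1 and in human C15orf48, encodes a small mitochondrial protein related to Ndufa4, a subunit of cytochrome c oxidase (complex IV of the respiratory chain). Its transcript also carries the microRNA miR-147, and in macrophages the gene is induced by inflammatory stimuli. IL-7 acts through the IL-7 receptor, JAK kinases and the factor STAT5 and keeps naive T cells alive.

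Both loci lie on autosomes in the RefSeq annotation of GRCm38.p6. Phlda1 occupies chr10:111506286-111508649 and AA467197 occupies chr2:122637887-122641076, on the plus strand. The AA467197 start is shown because only this gene of the pair had an entry in the promoter annotation used. The window runs over 300 bases, chr2:122637637-122637936 (plus strand, 250 bases before and 50 after the start). Capitals mark an E-box (CACGTG) and an AP-1 motif (TGANTCA), searched on both strands.
AA467197 promoter: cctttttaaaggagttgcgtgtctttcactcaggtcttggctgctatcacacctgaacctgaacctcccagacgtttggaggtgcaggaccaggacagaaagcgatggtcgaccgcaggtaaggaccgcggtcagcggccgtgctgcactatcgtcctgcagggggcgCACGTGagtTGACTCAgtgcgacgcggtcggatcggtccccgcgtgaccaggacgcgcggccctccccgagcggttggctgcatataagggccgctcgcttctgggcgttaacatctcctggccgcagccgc
The microRNA that lies inside the gene, mmu-miR-147-5p at chr2:122640814-122640837 (plus strand), is shown with its seed, bases 2 to 8, in capitals. The array probe for AA467197 does not measure it.
mmu-miR-147-5p: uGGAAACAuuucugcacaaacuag

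The E-box began 82 bases before the annotated start and the AP-1 motif 73 bases before it, and they do not overlap. Of 32851 promoter windows of this length in the same table, 7.15% held the E-box and 7.81% the AP-1 motif. The STAT motif TTCNNNGAA (8.3% of windows), the cyclic AMP response element TGACGTCA (1.79%) and the IRF motif (3.44%) had no match in the AA467197 window. A match describes letters only.

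Phlda1 signal, on the deposited background-subtracted linear scale, was 83.6 and 62.9 at 0 h, 55.8 and 40.3 at 6 h and 18.2 and 15.5 at 24 h. The probe was detected at 0 h and 6 h and was not well above background at 24 h (detection p 0.02564 and 0.01603). On the normalised log2 scale, used for all levels and differences from here on, the arrays read 6.39 and 6.38 at 0 h, 6.46 and 5.82 at 6 h and 4.92 and 5.08 at 24 h. The 2 arrays at 6 h lay on either side of the 0 h arrays, and both 24 h arrays lay below all others. The difference was -0.24 ± 0.22 (SE) at 6 h against 0 h and -1.38 ± 0.22 at 24 h against 0 h, at least 2.37-fold lower at 24 h with undetected values raised to each array's lowest detected one. Fewer cells of a type and less RNA per cell cannot be told apart in such bulk samples, here and below.

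AA467197 went the other way. Its deposited signal was -3.5 and -1.6 at 0 h (detection p 0.72009 and 0.59188, not well above background), 17.2 and 38.1 at 6 h and 76.4 and 46.6 at 24 h. Normalised values were 4.27 and 4.29 at 0 h, 5.23 and 5.76 at 6 h and 6.32 and 6.12 at 24 h, so no array of one time overlapped another time. The difference was 1.22 ± 0.20 (SE) at 6 h against 0 h, at least 1.37-fold higher, and 1.94 ± 0.20 at 24 h against 0 h, at least 2.26-fold higher.

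At 6 h, 1 of the 2 genes passed the call used throughout (limma, Benjamini-Hochberg adjusted p under 0.05), where 9.43% of 11065 features were called (4.1% higher and 5.32% lower), and 1 had groups that do not overlap, where 57.8% of features did. At 24 h both passed, where 6.16% were called (3.3% higher and 2.86% lower), and both had separate groups, where 63.3% did. Since these contrasts chose the genes, nothing is read from the counts.

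The step between the IL-7 times rests on the same 6 h and 24 h arrays and equals the difference of the naive differences above. Phlda1 averaged 5.003 ± 0.11 at 24 h and 6.14 ± 0.46 at 6 h (SD, n = 2 each), and both 24 h arrays lay below both 6 h arrays. The difference was -1.14 ± 0.22 (SE), at least 2-fold lower at 24 h. AA467197 averaged 6.22 ± 0.14 at 24 h and 5.50 ± 0.38 at 6 h (SD, n = 2 each), and its groups did not overlap either. Its difference was 0.72 ± 0.20 (SE), 1.65-fold higher at 24 h. Neither passed the call, where 0.398% of features were called, and both had separate groups, where 47.3% of features did; again nothing is read from this.

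The values at 6 h depended on the array. Without the first 6 h array, Phlda1 differed by -0.83 ± 0.15 (SE) at 24 h against 6 h, and without the second by -1.46. Its difference at 6 h against 0 h was -0.57 without the first and turned to 0.08 without the second. AA467197 differed at 24 h against 6 h by 0.46 without the first 6 h array and by 0.99 without the second. On the first 6 h array, which carried the B cell, myeloid and erythroid markers, Phlda1 was the higher of the pair of 6 h arrays and AA467197 the lower. In each of these fits the single 6 h array is assumed to vary like the other groups.

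In Th9 cells the deposited Phlda1 signal was 130.2, 136.4 and 435.4 on the IL7 Th9 arrays, against 1372.1, 1108.8 and 1682.8 on the Th9 arrays. Normalised values were 7.19, 7.74 and 8.66 in IL7 Th9 cells, against 10.01, 10.39 and 10.79 in Th9 cells. Every IL7 Th9 array lay below every Th9 array, and the IL7 Th9 arrays were spread more widely (SD 0.74 in IL7 Th9 and 0.39 in Th9 cells, n = 3 each). The difference was -2.54 ± 0.35 (SE), 5.8-fold lower in IL7 Th9 cells, the 4th most negative of 9635 features tested.

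The deposited AA467197 signal was 494.5, 381 and 553.8 on the IL7 Th9 arrays, against 254.7, 120.9 and 129.2 on the Th9 arrays. Normalised values were 8.96, 9.16 and 8.98 in IL7 Th9 cells, against 7.59, 7.28 and 7.32 in Th9 cells. The groups were far apart relative to their spread (SD 0.11 in IL7 Th9 and 0.17 in Th9 cells, n = 3 each). The difference was 1.63 ± 0.15 (SE), 3.1-fold higher in IL7 Th9 cells, the 14th most positive of 9635 features. Both genes passed the call, where 0.343% of features were called, and both had groups that do not overlap, where 14.7% of features did. This contrast chose them too, so nothing is read from these counts.

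**Figure D1:**
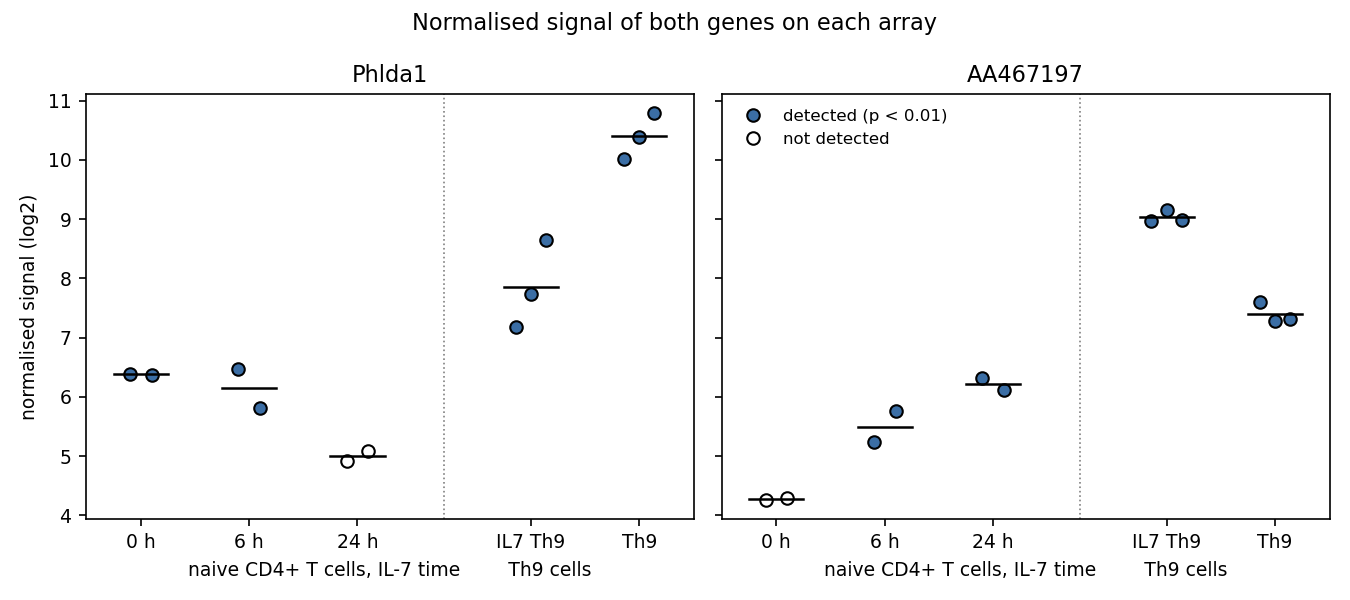
Normalised log2 signal (y axis) of Phlda1 and AA467197 on each array, by group (x axis), with a line at each group mean; filled points were detected (p under 0.01) and open points were not, and the dotted line separates the experiments, which were normalised apart. Phlda1 was lowest at 24 h (4.92 and 5.08) and lower in IL7 Th9 than in Th9 cells, while AA467197 was undetected at 0 h and highest in IL7 Th9 cells (8.96 to 9.16).

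The levels can be ordered over all 5 groups only after the 12 arrays are normalised together, and between the experiments the cells cannot be told apart from the BeadChip, since each experiment had its own. On that scale Phlda1 averaged 10.56 ± 0.35 in Th9 cells (SD, n = 3), 8.19 ± 0.71 in IL7 Th9 cells (n = 3), 6.13 ± 0.01 at 0 h, 5.90 ± 0.43 at 6 h and 4.90 ± 0.09 at 24 h (n = 2 each). The neighbours 0 h and 6 h did not differ beyond their spread. AA467197 averaged 9.30 ± 0.10 in IL7 Th9 cells (SD, n = 3), 7.75 ± 0.16 in Th9 cells (n = 3), 5.97 ± 0.14 at 24 h, 5.31 ± 0.33 at 6 h and 4.28 ± 0.02 at 0 h (n = 2 each). None of its groups overlapped with the next. Phlda1 was 4.43 ± 0.35 (SE) higher in Th9 cells than in naive cells at 0 h. AA467197, not well above background at 0 h, was at least 7.07-fold higher in Th9 cells.

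The size of the response in the experiments was set side by side in the same joint fit. The Phlda1 difference at 24 h was less negative than in Th9 cells by 1.14 ± 0.49 (SE), and 24 h is where its probe was at background. The AA467197 difference at 24 h minus that in Th9 cells was 0.14 ± 0.23 (SE), but its 0 h arrays were at background, so the size at 24 h depends on the floor. With each experiment normalised apart, the AA467197 differences at 24 h and in Th9 cells were 1.936 and 1.633. There, with an offset of 50 in place of 16, the order turned (1.02 at 24 h and 1.459 in Th9 cells). These values rest on the contrasts that chose the genes and have no test. Over the 12 arrays, centred within each experiment, the signals of the genes ran opposite to each other (Pearson r = -0.879; -0.887 over the 6 arrays of the first experiment and -0.94 over the 6 of the second). These arrays share groups and scaling, and the correlation includes the group differences that chose the genes.

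Among 8831 features tested in both experiments, 956 were called at 6 h or 24 h. Of the 20 called in Th9 cells, 5 (25%) were also called at 6 h or 24 h, beside those 956 of all 8831 features. These 5 were 0.523% of the naive calls. The overlap was not tested. All 5 ran the same way where called. Besides the pair they were Tnip2, which encodes an A20-binding inhibitor of NF-kB signalling, Ipcef1, whose product binds cytohesin exchange factors, and a probe with no symbol (ILMN_2780352). Tnip2 differed by 0.58 ± 0.13 (SE) at 6 h and by 0.96 ± 0.15 in IL7 Th9 against Th9 cells, and Ipcef1 by -0.72 ± 0.16 at 6 h and by -1.23 ± 0.19 in IL7 Th9 cells. At 24 h neither passed (Tnip2 -0.13 ± 0.13, Ipcef1 -0.37 ± 0.16). AA467197 was the only feature of the 5 called at both times, and it and Phlda1 were the only 2 called at 24 h and in Th9 cells. The pair was chosen on these contrasts, so nothing is read from its calls. Without the first 6 h array, Tnip2 was not called at 6 h (0.48 ± 0.15, adjusted p = 0.054, limma) and Ipcef1 was (-0.90 ± 0.15, adjusted p = 0.0046, limma). Just outside the call lay Tox, an HMG-box factor of T cell development, at -0.88 ± 0.21 at 24 h (adjusted p = 0.061, limma) and -1.42 ± 0.22 in IL7 Th9 cells (adjusted p = 0.045, limma). Tox was called at 24 h as well without the first 6 h array (adjusted p = 0.0033, limma). Others near the call ran either way. Cldn4 (1.39 at 24 h and 1.28 in IL7 Th9 cells) and Serpinb6b (-1.03 and -1.34) kept the same sign. So did H3c7 (-1.95 and -0.76), Cd160 (-2.71 and -0.84) and Itgb3bp (-0.53 and -0.96). Opposite signs were seen in Abi3 and ILMN_1255416. Abi3 differed by -1.56 ± 0.34 at 6 h (adjusted p = 0.041, limma) and by 0.98 ± 0.18 in IL7 Th9 cells (adjusted p = 0.083, limma), and the probe ILMN_1255416, with no symbol, by -0.62 ± 0.15 at 24 h (adjusted p = 0.067, limma) and by 3.56 ± 0.30 in IL7 Th9 cells (adjusted p = 0.0017, limma).

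Membership of this set varied with the processing. The Tnip2 call at 6 h, at an adjusted p that rounds to 0.05 (limma), was kept in 3 of 14 alternatives and its Th9 call in 3 of 13. Ipcef1 kept its calls in 5 of 14 and 7 of 13. AA467197 and Phlda1 were chosen on the contrasts counted here, so nothing is read from how often either was called. AA467197 was called in Th9 cells in 13 of 13 alternatives and Phlda1 in 6 of 13. With 1 Th9 or IL7 Th9 array left out, Phlda1 kept its call only without the third IL7 Th9 array (-2.92). At 24 h against 0 h AA467197 was called in 10 of 14 and Phlda1 in 9 of 14, and both calls were lost without any single 0 h or 24 h array, as was that of AA467197 at 6 h.

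**Figure D2:**
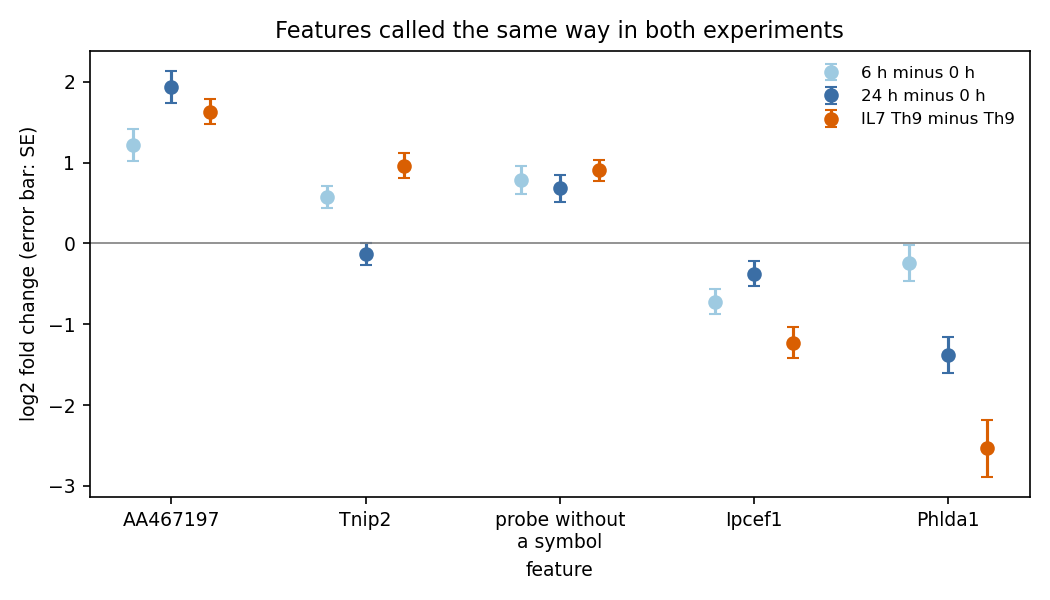
Log2 fold change (y axis, error bars SE) of the 5 features (x axis) called in both experiments, at 6 h and 24 h against 0 h and in IL7 Th9 against Th9 cells. AA467197 was positive in all 3 comparisons (1.22, 1.94 and 1.63), and Phlda1 was near 0 at 6 h (-0.24) and negative at 24 h (-1.38) and in Th9 cells (-2.54).

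The genes whose signal over the 12 centred arrays was most like each member were taken as the 5 highest Pearson correlations among 9361 features with a symbol, as a description. For Phlda1 they were Tox (r = 0.944), Glrx (0.936), Fam124b (0.929), Lrrc42 (0.918) and Glb1 (0.914). Over the first experiment alone r was 0.833, 0.918, 0.811, 0.59 and 0.605 in the same order. All r values, here and for AA467197, include the group differences that chose the genes. Glrx encodes glutaredoxin, which reduces protein disulfides, and Glb1 the lysosomal beta-galactosidase. With all arrays, only Tox of these passed a test, in Th9 cells (above), and that call was kept in 5 of 13 alternatives. Glrx differed by -0.62 ± 0.23 (SE) at 24 h against 0 h (adjusted p = 0.16, limma) and by -1.06 ± 0.24 in IL7 Th9 against Th9 cells (adjusted p = 0.14, limma). Lrrc42 was not above the detection filter in either experiment and Fam124b only in Th9 cells.

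For AA467197 the nearest were Tmtc4 (r = 0.949), Piezo1 (0.927), Tnfsf8 (0.916), Dag1 (0.911) and Ms4a6b (0.904). Piezo1 is a mechanically gated cation channel, Dag1 encodes dystroglycan, and Tnfsf8 is CD30 ligand, a TNF family member on activated T cells. Tnfsf8 read 6.58 and 6.60 at 0 h, 7.15 and 8.09 at 6 h and 8.19 and 8.23 at 24 h. It rose by 1.63 ± 0.29 (SE) at 24 h against 0 h (adjusted p = 0.033, limma), a call lost when any single 0 h or 24 h array was left out, and differed by 0.72 ± 0.19 in IL7 Th9 against Th9 cells (adjusted p = 0.21, limma). It also rose at 6 h without the first 6 h array (1.52 ± 0.15, adjusted p = 0.00044, limma). With all arrays no other gene of the 5 passed a test, and Tmtc4 came closest at 24 h against 0 h (0.60 ± 0.13, adjusted p = 0.051, limma).

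The protein-coding genes next to each locus were read the same way. None of the 4 around Phlda1 passed in any comparison with all arrays. Nap1l1, a histone chaperone gene and its nearest measured neighbour upstream, differed by 0.26 ± 0.14 (SE) at 24 h against 0 h and by -0.07 ± 0.17 in IL7 Th9 against Th9 cells. Glipr1 came closest, at -0.87 ± 0.23 at 6 h against 0 h (adjusted p = 0.067, limma), and it differed by -0.15 ± 0.18 in IL7 Th9 against Th9 cells. Without the first 6 h array it fell at 6 h (-1.22 ± 0.15, adjusted p = 0.0015, limma) and at 24 h (-0.67 ± 0.13, adjusted p = 0.0082, limma).

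Next to AA467197, Slc30a4, which encodes a zinc transporter, rose at 24 h. Its deposited signal was 19 and 15.1 at 0 h, where it was not well above background, 24.2 and 56 at 6 h and 103.6 and 55.9 at 24 h. The difference at 24 h against 0 h was 1.498 ± 0.23 (SE), at least 2.76-fold higher (adjusted p = 0.024, limma), and at 6 h it was 0.85 ± 0.23 (adjusted p = 0.073, limma), or 1.18 ± 0.18 without the first 6 h array (adjusted p = 0.0035, limma). The 24 h call was lost when any single 0 h or 24 h array was left out. Slc30a4 did not pass the detection filter in Th9 cells. Gatm, a creatine synthesis enzyme gene on the other side, passed the filter only there and differed by 1.10 ± 0.41 (adjusted p = 0.41, limma). Bloc1s6, the next gene beyond Slc30a4, differed by 0.22 ± 0.16 at 24 h against 0 h and by -0.07 ± 0.18 in IL7 Th9 against Th9 cells, and Spata5l1 was not measured.

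**Figure D3:**
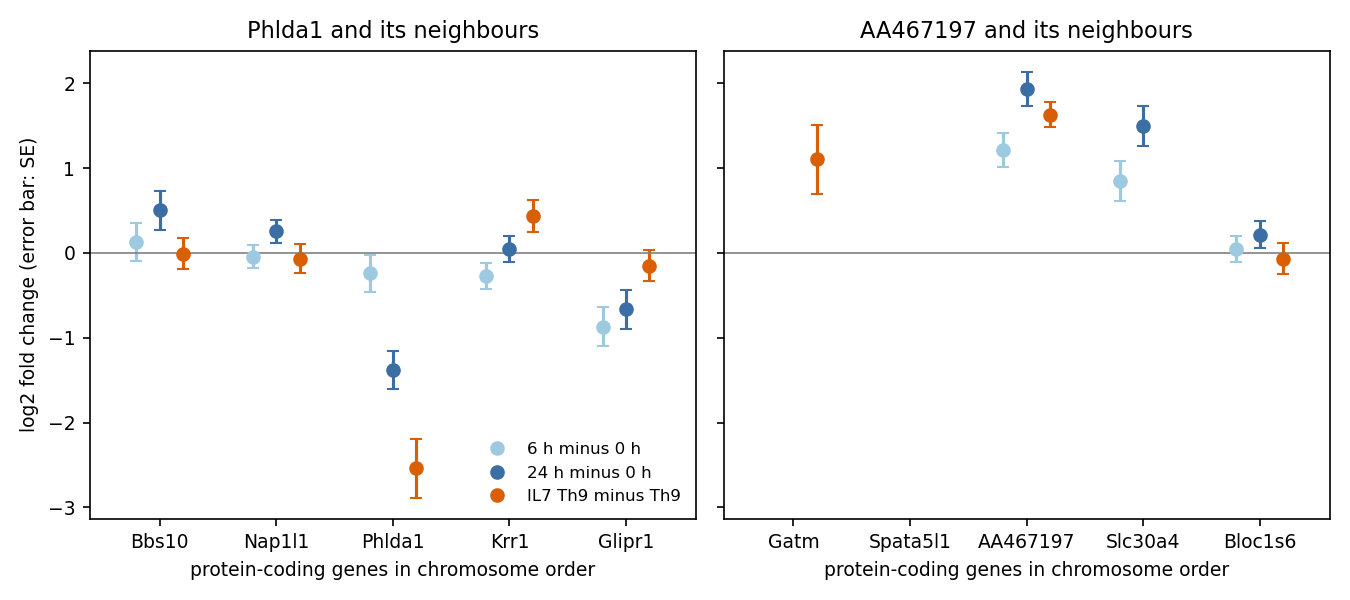
Log2 fold change (y axis, error bars SE) of Phlda1, AA467197 and the protein-coding genes on either side of each (x axis, in chromosome order, not to scale), with no point where a gene did not pass the detection filter. Slc30a4 beside AA467197 was higher at 24 h (1.498), and the 4 neighbours of Phlda1 lay between -0.87 and 0.50.

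Of the genes that share a family with Phlda1, Phlda2 was not above the detection filter in either experiment and Phlda3 only in Th9 cells, where it differed by 0.55 ± 0.20 (SE, adjusted p = 0.41, limma) in the direction opposite to Phlda1. Of 10 listed FAS death receptor pathway genes, 7 were measured. Cflar, which encodes the caspase-8 inhibitor c-FLIP, fell by 0.76 ± 0.13 at 6 h and fell by 0.71 ± 0.13 at 24 h against 0 h (adjusted p = 0.024 and 0.033, limma), and 0 of 7 rose. Of all features, 5.32% were called lower and 4.1% higher at 6 h, and 2.86% lower and 3.3% higher at 24 h. An unadjusted p (limma) was under 0.05 for 4 of the 7 at 6 h and 1 at 24 h, where it was for 29.2% and 25.3% of all features. In Th9 cells 0 of 7 passed (limma), where 0.343% of all features were called. An unadjusted p was under 0.05 there for 2 of the 7, where it was for 9.92% of all features. Fas itself differed by 0.41 ± 0.16 at 6 h, 0.29 ± 0.16 at 24 h and 0.40 ± 0.16 in IL7 Th9 cells, none past the test. Fasl, its ligand, differed by 0.98 ± 0.23 at 6 h (adjusted p = 0.053, limma) and by -0.97 ± 0.26 in IL7 Th9 cells (adjusted p = 0.22, limma). The median over the 7 was 0.32 at 6 h, -0.04 at 24 h and -0.02 in Th9 cells, beside -0.03, 0.00 and -0.01 over all features tested. Without the first 6 h array, 4 rose at 6 h (Fas, Fasl, Fadd and Casp8) and 2 fell (Cflar and Bid), where 24.3% of all features were called.

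Genes that report ERK pathway activity were the other list tied to Phlda1, with 5 of 16 measured in naive cells and 10 in Th9 cells. None passed in any comparison (limma), while an unadjusted p was under 0.05 for 2 of 5 at 6 h and 3 of 5 at 24 h against 0 h, for 4 of 5 at 24 h against 6 h and for 0 of 10 in Th9 cells. Over all features that share was 29.2%, 25.3%, 17% and 9.92% in the same order. Their median at 24 h against 0 h was -0.57. Egr1, an immediate early transcription factor gene, read 10.67 and 10.60 at 0 h, 11.71 and 7.90 at 6 h and 7.11 and 7.08 at 24 h. Dusp6, an ERK phosphatase gene, read 8.97 and 9.10 at 0 h, 9.32 and 7.35 at 6 h and 6.53 and 6.39 at 24 h. As for Phlda1, the first 6 h array was the higher of the 6 h arrays and both 24 h arrays were the lowest. At 24 h against 0 h Egr1 differed by -3.54 ± 1.08 (SE) and Dusp6 by -2.58 ± 0.57 with all arrays. Without the first 6 h array they differed by -3.55 and -2.59. With only the 0 h and 24 h arrays fitted, 4 of 5 fell (limma), where 2436 of 10682 features were called. The spread between the 6 h arrays does not enter that fit. In Th9 cells, where Phlda1 was 5.8-fold lower after IL-7, Egr1 differed by -0.35 ± 0.17 and Dusp6 by -0.28 ± 0.19.

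Of 12 listed integrated stress response genes, 6 were measured in naive cells. Trib3, a stress-induced pseudokinase gene, rose by 3.75 ± 0.33 (SE) at 6 h and by 3.48 ± 0.33 at 24 h against 0 h (adjusted p = 0.0067 and 0.0077, limma). The other 5 did not pass, Atf4 among them (-0.41 ± 0.14 at 24 h). Of all features, 4.1% were called higher at 6 h and 3.3% at 24 h. An unadjusted p (limma) was under 0.05 for 2 of the 6 at 6 h and 5 at 24 h, where it was for 29.2% and 25.3% of all features. Without the first 6 h array, Cebpb differed by -1.93 at 6 h and -2.13 at 24 h against 0 h. Ppp1r15a then differed by -2.41 and -3.27, Atf5 by -0.377 and -0.495 and Atf4 by -0.326 and -0.413. Ddit3 differed by 0.255 and 0.096 and Trib3 by 4.29 and 3.498. Trib3, Cflar, Cox7a2 and Cox7b kept their 6 h calls without it. The list's median was -0.38 at 6 h and -0.45 at 24 h. In Th9 cells 0 of 12 passed (limma), and Trib3 differed by -0.54 ± 0.24. An unadjusted p was under 0.05 there for 3 of the 12, where it was for 9.92% of all features.

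Around the AA467197 product, Ndufa4 differed by -0.22 at 6 h and 0.04 at 24 h against 0 h and by -0.06 ± 0.15 (SE) in IL7 Th9 against Th9 cells, with no call. Of 22 listed complex IV genes, 16 were measured in naive cells and 17 in Th9 cells. The subunit gene Cox7a2 fell by 0.89 ± 0.14 at 6 h and fell by 0.79 ± 0.14 at 24 h (adjusted p = 0.021 and 0.033, limma). Cox7b, another subunit gene, fell by 0.71 ± 0.14 at 6 h (adjusted p = 0.035, limma), and 0 rose. Of all features, 5.32% were called lower and 4.1% higher at 6 h, and 2.86% lower and 3.3% higher at 24 h. An unadjusted p (limma) was under 0.05 for 3 of the 16 at 6 h and 3 at 24 h, where it was for 29.2% and 25.3% of all features. In Th9 cells 0 of 17 passed (limma). An unadjusted p was under 0.05 there for 1 of the 17, where it was for 9.92% of all features. The list's median was -0.01 at 6 h, -0.01 at 24 h and -0.13 in Th9 cells. The calls of Cflar, Cox7a2 and Cox7b were lost when any single 0 h or 24 h array was left out, that of Trib3 at 24 h likewise, and that of Trib3 at 6 h when either 0 h array was.

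Macrophages can express AA467197, and the 15 probed myeloid and dendritic cell markers are given beside it. Their part in its difference was not tested. Their summed signal was 1976.6 and 1678.5 at 0 h, 5490.9 and 1454 at 6 h and 1497.3 and 1164.9 at 24 h. It was 975 to 1551.4 on the IL7 Th9 arrays, against 1200.4 to 2780.1 on the Th9 arrays. Itgam and Itgax were not detected on any array, and most of the sum in Th9 cells was Cst3. The summed signal of 6 natural killer cell markers was 2630 and 2000.6 at 0 h, 585.5 and 1020.1 at 6 h and 1918.8 and 1220.9 at 24 h, and 147.1 to 343.9 in IL7 Th9 cells, against 286 to 414.5 in Th9 cells. B cell markers summed to 128.2 and 277.5 at 24 h, against 526.9 and 623.3 at 0 h, and to 610.6 to 1190.2 in IL7 Th9 cells, against 1051.8 to 1826.2 in Th9 cells, with Ms4a1 and Pax5 detected on no array. The 2 erythroid markers summed to 476.4 and 344.2 at 0 h, 1414.5 and 163.3 at 6 h and 41.6 and 50.9 at 24 h, nearly all of it Hba-a1, and neither was detected in Th9 or IL7 Th9 cells. The beta-globin genes Hbb-bt and Hbb-bs, chosen after their values were seen, differed by -2.80 ± 0.19 and -3.12 ± 0.25 (SE) in IL7 Th9 against Th9 cells (adjusted p = 0.00085 and 0.0017, limma). All 4 sums were lower at 24 h than at 0 h, as Phlda1 was. The CD4+ T cell marker sum was lower too (32295.3 and 26854.6 at 24 h, against 50840.2 and 39158.8 at 0 h). The sums are not normalised between arrays, whose mean signal was 219.3 and 172.9 at 24 h, against 245.2 and 197.6 at 0 h. The part of these sums in the Phlda1 difference was not tested. Il9 was detected on the Th9 and IL7 Th9 arrays and on no naive array.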

How the data were processed

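Deposited tables cover the 12 arrays. The intensity values used are background-subtracted, linear and not normalised between arrays, and come from GenomeStudio per the submitters' processing notes; a detection p-value for each probe was deposited beside them. A second deposited intensity table, scaled per array, was not used, since same-named probes of the tables held unrelated values (Spearman correlation -0.008 to 0.002).

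Signals were processed with neqc (offset 16) of limma 3.58.1 in R 4.3.3, for each experiment apart. Features were kept if detected (p under 0.01) on 2 or more naive arrays, or on 3 or more Th9 arrays, with the brightest probe per symbol. Groups were compared with lmFit and eBayes, with 2-sided p-values and Benjamini-Hochberg adjustment across every feature tested. Lists are described by counts and medians. Symbols came from GEO's platform annotation (34885 probes with 1 symbol, 18 with several, 10378 with none). Promoter and microRNA sequences are from RefSeq (GRCm38.p6); of the 2 genes, 1 matched the promoter table. Named genes are those called in both experiments, the 5 most similar per gene, the chromosome neighbours and the listed genes that passed or define a list. The genes and lists were chosen with earlier results of these data known. The fits were tested on simulated data. The number of arrays limits precision.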

Additional observations from a re-analysis of the deposited data

Results flagged for a closer look

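Of 58 named and listed genes checked, 4 had differences of opposite sign in the experiments on every array, a difference between experiments that was not tested. Over all features, groups did not overlap for 57.8% at 6 h and 63.3% at 24 h against 0 h, and for 14.7% in Th9 cells. The share of all features with opposite signs was not computed, so nothing is read from the count. Tnip2 differed by -0.132 at 24 h against 0 h (5.54 and 5.67 at 24 h, against 5.74 and 5.73 at 0 h) and by 0.964 in IL7 Th9 against Th9 cells (7.76, 7.65 and 7.42, against 6.81, 6.55 and 6.59). Krr1, a ribosome assembly gene next to Phlda1, differed by -0.27 at 6 h against 0 h (6.95 and 6.82 at 6 h, against 7.06 and 7.25 at 0 h) and by 0.436 in IL7 Th9 against Th9 cells (7.96, 8.14 and 8.38, against 7.39, 7.87 and 7.91). Fasl differed by 0.976 at 6 h against 0 h (8.29 and 7.69 at 6 h, against 7.04 and 6.98 at 0 h) and by -0.967 in IL7 Th9 against Th9 cells (6.99, 7.67 and 6.93, against 8.63, 7.98 and 7.88). Cox17, a complex IV assembly gene, differed by 0.191 at 24 h against 0 h and by -0.61 in IL7 Th9 against Th9 cells. Of these differences only that of Tnip2 in Th9 cells passed (limma, adjusted p = 0.046).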

How the results depend on the processing

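With 2 arrays per time, single arrays decide many calls. AA467197 kept its direction in all alternatives run. At 24 h against 0 h it differed by 2.139 with mean scaling, 1.02 with an offset of 50 and 1.691 with the 12 arrays normalised together, and by 1.805 to 2.062 with 1 array left out; at 6 h by 0.573 with the offset of 50 and 0.951 to 1.513; at 24 h against 6 h by 0.459 to 0.985; and in Th9 cells by 1.459 with the offset of 50 and 1.575 to 1.743. Phlda1 at 24 h against 0 h differed by -1.26, -0.829 and -1.231 in the same settings and by -1.471 to -1.29 with 1 array left out; at 24 h against 6 h by -1.46 to -0.832; and in Th9 cells by -2.919 to -2.191. At 6 h it ran between -0.57 and 0.081, the last without the second 6 h array. The cause was not tested.

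Features called at 6 h numbered 519 without the detection filter, 184 with only the groups compared and 3 to 2645 with 1 array left out, against 1043. At 24 h they numbered 211, 2436 and 1 to 2418, against 682. Between 24 h and 6 h they numbered 7, 4 and 0 to 1476, and 67 with the offset of 50, against 44. In Th9 cells they numbered 4 without the filter, 88 with the offset of 50, 15 normalised together and 8 to 62 with 1 array left out, against 33. Of 576 list counts under these settings, 56 moved over 1.5 times. Counts of 0 that stayed 0 are among the unmoved, so this ratio does not measure how stable the other counts were.

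Deviations of same-numbered arrays correlated weakly (r = 0.063, 0.144 and -0.185 between times in the first experiment, and -0.061, -0.099 and 0.289 in the second). In the first experiment the 2 arrays of a time deviate as mirror images. These values therefore cannot show whether same-numbered arrays shared a mouse or culture. With the replicate block, 681 features were called at 6 h, 449 at 24 h, 5 between 24 h and 6 h and 23 in Th9 cells, and no call of either gene changed (AA467197 1.936 and Phlda1 -1.379 at 24 h against 0 h). BeadChip could not enter as a block, with 1 per experiment.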
